A study of Homo sapiens with 24 samples.

Results

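Ferritin and haem breakdown transcripts were followed in 10 of the 23595 genes measured: FTL, FTH1, SLC40A1, TFRC, NCOA4, IREB2, ACO1, HMOX1, BLVRA and BLVRB. They were taken by gene symbol as a set that stores, imports, exports or releases iron. FTL and BLVRB were picked because of their OTX changes in U937 (chosen by the FPKM of OTX against DMSO libraries there), so their values in U937, and in any comparison that uses U937, are given as a description with no test. Polyadenylated RNA came from 2 human acute myeloid leukaemia lines, the monocytic line U937 and the line IMS-M2. Each line was kept without folic acid (-FA) or with it (+FA) and given OTX or its solvent DMSO. This makes 8 groups of 3 libraries: U937 -FA OTX and U937 -FA DMSO, U937 +FA OTX and U937 +FA DMSO, IMS-M2 -FA OTX and IMS-M2 -FA DMSO, and IMS-M2 +FA OTX and IMS-M2 +FA DMSO. From the study, OTX stands for birabresib, which blocks BET bromodomain proteins. The labels give only the abbreviation, and they state no dose, no duration and no time without folic acid. Whether the 3 libraries of a group are separate cultures is not stated, and each p-value measures only their spread, which may be technical. Each is a single established line, so no group holds more than 1 genetic background.

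Cells keep free iron low by storing it in ferritin, a shell built from a light chain (FTL) and a heavy chain (FTH1) that oxidises the iron. TFRC, the transferrin receptor, brings iron in, SLC40A1 (ferroportin) lets it out, and NCOA4 carries ferritin to the lysosome, where its iron is freed. The iron regulatory proteins ACO1 (IRP1) and IREB2 (IRP2) bind a hairpin called the iron-responsive element (IRE) when iron is scarce: in a 5′ UTR the bound protein blocks translation, and in the 3′ UTR of TFRC it protects the transcript. Haem is opened by HMOX1, haem oxygenase, into biliverdin, carbon monoxide and iron, and biliverdin is then reduced by BLVRA or BLVRB. Polyadenylated RNA reports transcript abundance, which control of transcript stability can change, and not translation or protein level.

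The hairpins are shown because they are what sets FTL, FTH1, SLC40A1 and TFRC apart from the other 6 genes in sequence. Each line gives 30 bases in transcript sense, 5′ to 3′, from the reference transcripts of GENCODE release 29 on GRCh38, with the 6-base loop in capitals.
FTL, 5′ UTR, chr19:48965335-48965364, plus strand: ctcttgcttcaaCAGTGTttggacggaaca
FTH1, 5′ UTR, chr11:61967573-61967602, minus strand: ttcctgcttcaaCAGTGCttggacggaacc
SLC40A1, 5′ UTR, chr2:189580660-189580689, minus strand: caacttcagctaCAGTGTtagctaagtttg
TFRC, 3′ UTR, chr3:196050978-196051007, minus strand: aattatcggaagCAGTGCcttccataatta
TFRC, 3′ UTR, chr3:196050574-196050603, minus strand: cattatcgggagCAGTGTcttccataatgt
TFRC, 3′ UTR, chr3:196050509-196050538, minus strand: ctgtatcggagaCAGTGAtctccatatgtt
TFRC, 3′ UTR, chr3:196050462-196050491, minus strand: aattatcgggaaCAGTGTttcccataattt
The search took a C, then 5 stem bases, then the loop CAGTGN with a last base other than G, then 5 bases that pair with the stem (A with U, G with C or G with U), on the transcript strand. By the same search 214 of 19669 protein-coding genes (1.09%) hold a match. IREB2, ACO1, HMOX1, BLVRA, BLVRB and NCOA4 had none in the transcript searched. A match describes letters in a reference transcript and says nothing of binding in these cells.

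Levels are given in FPKM, fragment counts divided by transcript length and library total, in 4 tables of 1 line and folic acid condition each, on build hg19. FPKM sums per library ran from 522659 to 644841, 10418 to 10894 genes reached 1 FPKM, and the sequencing depth is unknown. HEXIM1, a common readout of BET inhibition, was higher under OTX in all 4 tables (log2 change 1.24 to 2.31), and MYC was lower (-3.08 to -0.47). Of 7 myeloid markers, 5 to 7 averaged at least 1 FPKM in each group. Their summed level was lower under OTX: 865 to 932.5 FPKM with OTX and 1811 to 2194 FPKM with DMSO in U937 -FA, 642 to 663 and 895 to 1068 in U937 +FA, 131 to 144 and 256 to 271 in IMS-M2 -FA, and 120.1 to 135 and 248.5 to 263 in IMS-M2 +FA. LYZ is the largest term in U937, with means of 446 FPKM with OTX and 1445 FPKM with DMSO without folic acid, and 260 and 548 FPKM with it. Single markers went the other way: PTPRC had means of 90.4 FPKM with OTX and 49.1 FPKM with DMSO in U937 -FA and 92.4 and 39.6 FPKM in U937 +FA, MPO had 1.08 and 0.281 FPKM in U937 -FA and 1.40 and 0.192 FPKM in U937 +FA, and CEBPA had 66.9 and 48.2 FPKM in IMS-M2 +FA. The part of these shifts in the results that follow was not tested. Of 11 erythroid markers at most 1 averaged 1 FPKM in any group, with sums of 0.614 to 0.890 FPKM with OTX and 2.83 to 4.28 FPKM with DMSO in U937, and of at most 0.356 FPKM in IMS-M2 apart from 1 OTX library at 10.4 FPKM. Markers of iron-recycling macrophages summed to at most 3.69 FPKM. GYPB, HBG1 and SPIC were at 0 in every group. One library, column 2 of U937 -FA DMSO, had the lowest mean correlation with its own group (0.991 across genes) and the highest FPKM sum. Some U937 -FA results of the set are therefore also given without it, where stated. The rest, among them the ratios and the genes of related lists, are given only with it.

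**Figure D1:**
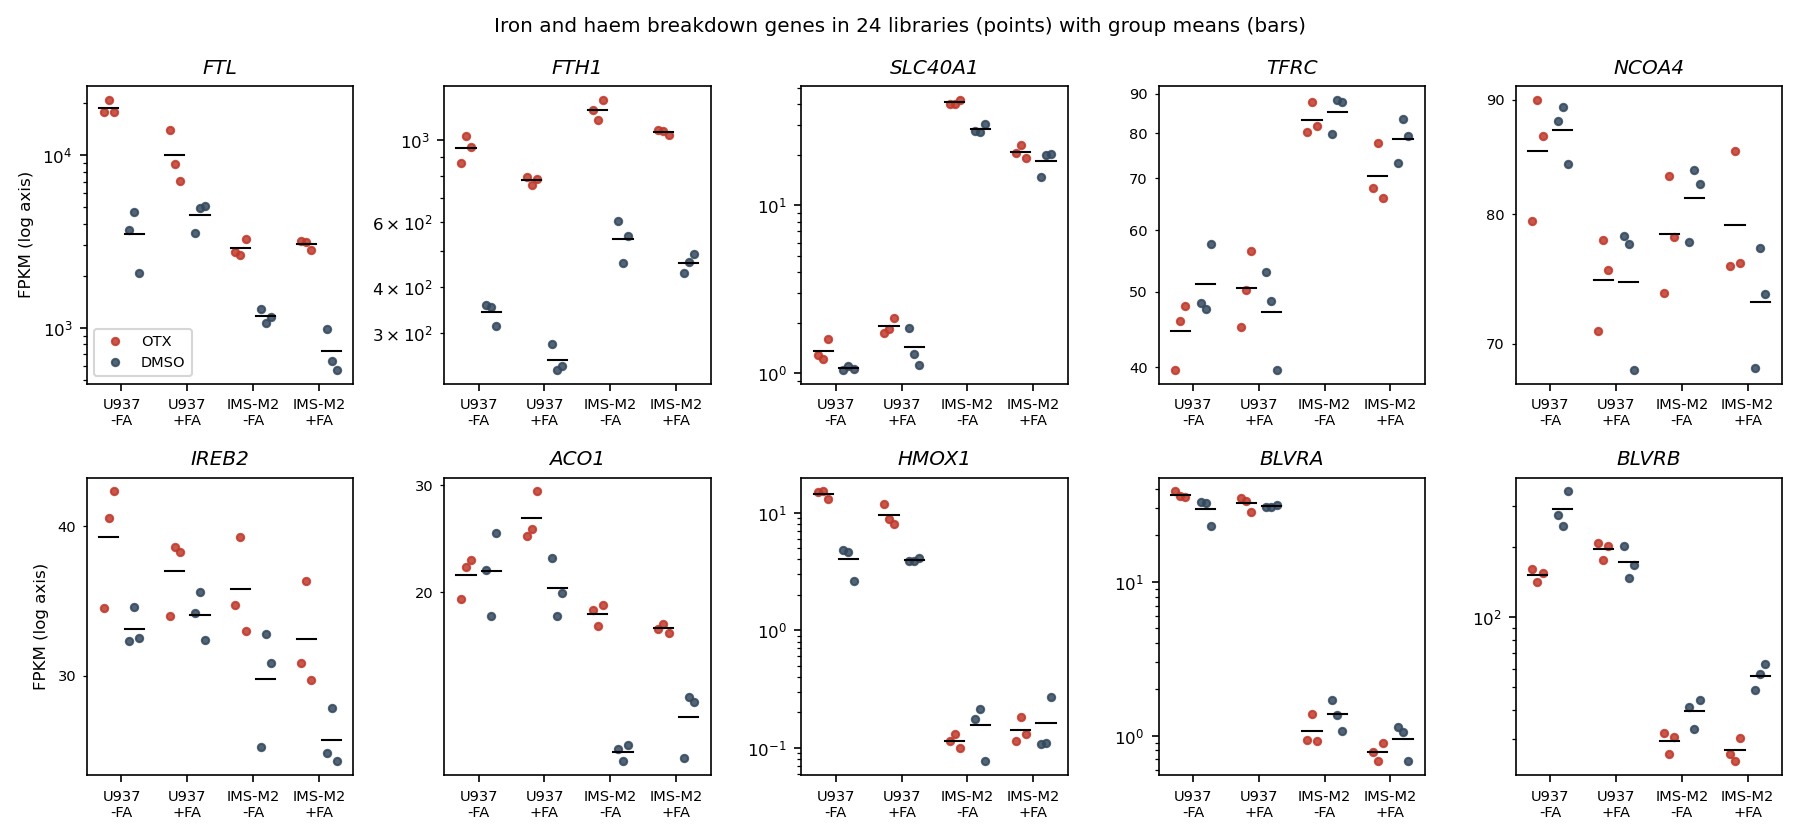
FPKM (log axis, scale set per gene) of the 10 genes in each of 24 libraries, with points for libraries and bars for group means, OTX left of DMSO in each pair. FTL and FTH1 points of OTX lie above those of DMSO in all 4 conditions, though FTL was chosen for its change in U937. HMOX1 and BLVRA lie at 1.71 FPKM or below in IMS-M2, and TFRC and NCOA4 points overlap.

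Across the 4 OTX comparisons, both ferritin chains stood higher with OTX, and TFRC and NCOA4 did not pass the test in any of them. For FTL the U937 comparisons were part of its choice, and only IMS-M2 gave tests. Of the haem breakdown genes, HMOX1 and BLVRA lay at 1.71 FPKM or below in IMS-M2, and BLVRB was not tested in U937. Their responses to OTX can therefore be compared between the lines only in part. All 10 genes passed the filter of a mean of 1 FPKM in at least 1 group in U937, and 8 were tested there. FTH1, IREB2, HMOX1 and BLVRA were higher in U937 -FA and none was lower (limma, adjusted p below 0.05), where 59.8% of all genes tested were called, 28.0% higher and 31.7% lower. FTH1, ACO1 and HMOX1 were higher in U937 +FA and none lower, against 29.1% and 27.0% of all genes (56.1% in either direction). No tested gene of the set was lower at an unadjusted p below 0.05 in either U937 comparison (0 of 8 in each), and no other tool was run. In IMS-M2, 9 of 10 passed the filter, since HMOX1 lay below it. FTL, FTH1, ACO1 and SLC40A1 were higher and BLVRB was lower in IMS-M2 -FA, where 57.5% of all genes were called, 27.5% higher and 30.0% lower. FTL, FTH1, IREB2 and ACO1 were higher and BLVRB was lower in IMS-M2 +FA, against 29.8% and 33.4% (63.2% in either direction). With 56.1 to 63.2% of all genes called in either direction, counts of 3 to 5 among 8 or 9 genes are close to the background, and it is the sizes that set single genes apart. The share of all genes whose OTX and DMSO libraries do not overlap is not given here. A lack of overlap therefore does not set a gene apart by itself. The median log2 change of the tested members was 0.21 in U937 -FA, 0.19 in U937 +FA, 0.24 in IMS-M2 -FA and 0.19 in IMS-M2 +FA, beside medians over all genes of -0.02, 0.02, -0.01 and -0.03. In a bulk sample, fewer cells with a transcript and less of it per cell cannot be told apart.

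FTL, the ferritin light chain (hg19 chr19:49468565-49470136), took up between 0.127% and 3.42% of all FPKM in the group averages. In U937 -FA it stood at 17634, 20924 and 17708 FPKM with OTX and at 3654, 4684 and 2072 FPKM with DMSO. No OTX library overlapped a DMSO library, and the lowest OTX value was several times the highest DMSO value. The difference was 2.51 ± 0.30 (SE) on the log2(FPKM + 1) scale, a 5.40-fold ratio of means, and 2.18 without DMSO column 2. The highest share, 3.42% with OTX, stood against 0.578% with DMSO in that table. In U937 +FA the values were 13941, 8887 and 7022 FPKM with OTX and 3529.8, 4897 and 5059 FPKM with DMSO. These groups did not overlap either, but the OTX libraries were spread widely, with a mean of 9950.2 ± 3580.1 FPKM against 4495 ± 840.1 FPKM in DMSO (SD, n = 3 each). Their log2 difference was 1.10 ± 0.30. Since FTL was chosen for these U937 changes, they carry no test.

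IMS-M2 gave the tests, since FTL was picked for its changes in U937. The set itself was chosen with earlier results of these data known. In IMS-M2 -FA, FTL stood at 2752, 2649.7 and 3273 FPKM with OTX and at 1277, 1067 and 1154 FPKM with DMSO. In IMS-M2 +FA it stood at 3158, 3139 and 2833 FPKM with OTX and at 981, 641 and 568 FPKM with DMSO. Every OTX library lay above every DMSO library in both tables. The log2 change was 1.31 ± 0.17 without folic acid (2.48-fold, adjusted p = 2.76e-05) and 2.10 ± 0.17 with it (4.17-fold, adjusted p = 3.39e-07). Only 0.918% of all genes tested without folic acid, and 0.241% with it, had a log2 change as high or higher. FTL levels were lower in IMS-M2 than in U937 in every matched group: the IMS-M2 OTX means of 2892 and 3043 FPKM lay below the U937 DMSO means of 3470.1 and 4495 FPKM. Lines come from separate tables that may have been scaled apart, so this order is given without a test.

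FTH1, the ferritin heavy chain, rose in all 4 comparisons, each time with the OTX libraries clear of the DMSO libraries. In U937 -FA it stood at 866, 1028 and 959 FPKM with OTX and at 357, 354 and 314 FPKM with DMSO (log2 1.47 ± 0.0955, adjusted p = 3.23e-07). In U937 +FA it stood at 797, 757 and 787 FPKM with OTX and at 280.3, 239 and 245 FPKM with DMSO (log2 1.61 ± 0.0955, adjusted p = 2.08e-07). These were rises of 2.78-fold and 3.06-fold, and 1.41 on the log2 scale in U937 -FA without DMSO column 2 (adjusted p = 8.55e-07, within 1.79e-07 to 7.2e-05 over 13 alternatives). In IMS-M2 -FA it stood at 1209, 1134 and 1290.4 FPKM with OTX and at 605, 464 and 551 FPKM with DMSO (log2 1.17 ± 0.0993, adjusted p = 7e-07). In IMS-M2 +FA it stood at 1068, 1057 and 1031 FPKM with OTX and at 436, 469 and 492 FPKM with DMSO (log2 1.18 ± 0.0993, adjusted p = 5.6e-07). The tightest group was IMS-M2 +FA OTX, with an SD of 18.6 FPKM around 1052 FPKM. Unlike FTL, FTH1 was lower in U937 than in IMS-M2 within each matched pair of group means. In the tables FTH1 shares its locus (hg19 chr11:61717355-61735132) with BEST1, a chloride channel gene, and the position given covers both.

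Reads of FTL and FTH1 can also fall on processed copies. Among the 5 genes listed as ferritin copies or relatives, FTH1P18, FTHL17, FTLP10 and FTMT were at 0 in every group mean, and FTH1P3 reached at most 0.323 FPKM in a library. How multiply mapping reads were counted is not given in the sources used here, so reads shared with other copies could be part of the ferritin values.

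**Figure D2:**
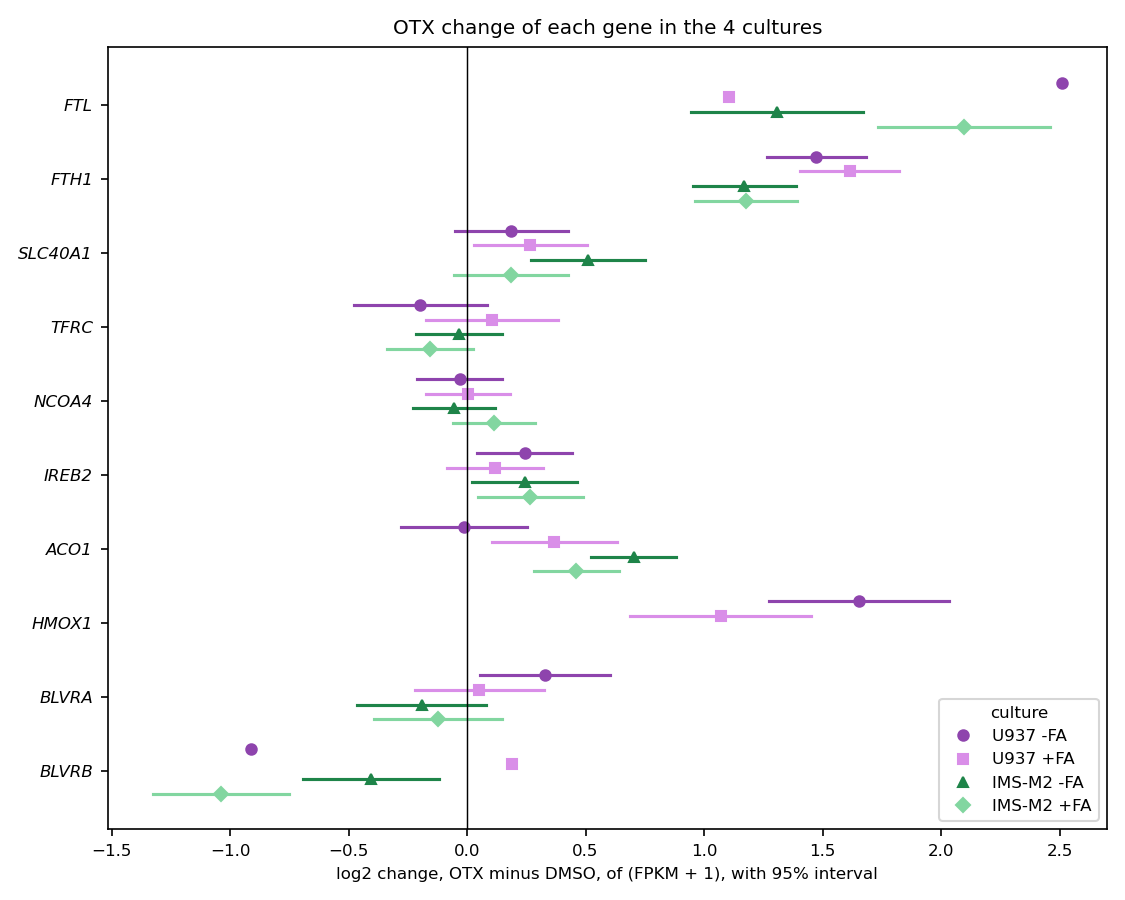
Log2 change of each gene, OTX minus DMSO on the log2(FPKM + 1) scale, with 95% intervals of the limma fit, in U937 -FA, U937 +FA, IMS-M2 -FA and IMS-M2 +FA from top to bottom for each gene. FTL and BLVRB carry no interval in U937, where they were chosen, and HMOX1 has no value in IMS-M2, where it lay below the filter; FTL spans 1.10 to 2.51 and FTH1 1.17 to 1.61.

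TFRC, the importer, did not pass the test in any comparison, in contrast to the size of the ferritin changes. In U937 -FA it stood at 39.7, 45.9 and 47.9 FPKM with OTX and at 48.4, 47.5 and 57.7 FPKM with DMSO, overlapping by 1 library on each side. The log2 change was -0.20 with a 95% interval of -0.48 to 0.08 (adjusted p = 0.202). In U937 +FA (45.1, 50.3 and 56.4 FPKM with OTX and 53.0, 48.6 and 39.7 FPKM with DMSO) the interval ran from -0.17 to 0.39. In IMS-M2 -FA TFRC held 80.5, 87.8 and 81.8 FPKM with OTX and 79.9, 88.5 and 87.7 FPKM with DMSO, an interval of -0.22 to 0.15. In IMS-M2 +FA it held 68.1, 77.7 and 66.0 FPKM with OTX and 73.3, 83.5 and 79.4 FPKM with DMSO, an interval of -0.34 to 0.03. The changes of FTH1 lie outside these intervals, while small changes of TFRC lie inside them. IMS-M2 +FA is the least settled of them: TFRC was called lower there without DMSO replicate 1 (adjusted p = 0.0446) or without OTX replicate 2 (0.0394), in a range of 0.0394 to 0.341 over 14 alternatives.

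NCOA4, the ferritin receptor of autophagy, was the steadiest gene of the set. Its group means ran from 73.1 to 87.2 FPKM over all 8 groups. OTX and DMSO libraries overlapped in all 4 tables, and the log2 changes were -0.03 in U937 -FA, 0.0045 in U937 +FA, -0.05 in IMS-M2 -FA and 0.11 in IMS-M2 +FA. The 95% intervals of the 4 changes lay between -0.23 and 0.29.

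SLC40A1, the only known cellular iron exporter, separated the lines. It stood at 39.9, 40.3 and 42.6 FPKM with OTX and at 27.8, 27.3 and 30.5 FPKM with DMSO in IMS-M2 -FA. There the groups were apart, and the rise was 0.51 ± 0.11 on the log2 scale (1.44-fold, adjusted p = 0.0017). In IMS-M2 +FA it held 20.5, 22.8 and 19.2 FPKM with OTX and 14.7, 19.9 and 20.3 FPKM with DMSO, which overlap (log2 0.19, 95% interval -0.05 to 0.43). In U937 it lay near the filter. It held 1.28, 1.22 and 1.60 FPKM with OTX and 1.05, 1.11 and 1.07 FPKM with DMSO in U937 -FA, where no OTX library fell among the DMSO libraries but the test was not passed (log2 0.19, adjusted p = 0.158). In U937 +FA it held 1.74, 1.84 and 2.13 FPKM with OTX and 1.85, 1.31 and 1.12 FPKM with DMSO (log2 0.27, adjusted p = 0.056). That value passed without DMSO replicate 1, the highest of its group (log2 0.39, adjusted p = 0.0058, in a range of 0.0058 to 0.217 over 13 alternatives).

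ACO1, the first of the 2 regulators and an aconitase when it carries an iron-sulphur cluster and IRP1 when it does not, rose in both IMS-M2 tables. It stood at 18.7, 17.6 and 19.0 FPKM with OTX and at 11.0, 10.5 and 11.2 FPKM with DMSO in IMS-M2 -FA. In IMS-M2 +FA it stood at 17.4, 17.7 and 17.2 FPKM with OTX and at 10.7, 13.5 and 13.2 FPKM with DMSO. The groups were apart in both, with log2 changes of 0.70 ± 0.0823 (1.69-fold, adjusted p = 1.26e-05) and 0.46 ± 0.0823 (1.40-fold, adjusted p = 0.000352). In U937 -FA, ACO1 held 19.5, 22.0 and 22.6 FPKM with OTX, inside the DMSO values of 21.7, 18.3 and 25.1 FPKM (log2 -0.01, 95% interval -0.28 to 0.25). The sign of that value is not fixed: it was 0.0084 when each library was rescaled to its table median, and 0.09 without DMSO column 2. In U937 +FA it stood at 24.8, 25.4 and 29.3 FPKM with OTX and at 22.8, 18.3 and 19.9 FPKM with DMSO, a rise of 0.37 ± 0.12 (adjusted p = 0.0218). This call was lost without DMSO replicate 2 (adjusted p = 0.0875), DMSO replicate 3 (0.0591) or OTX replicate 3 (0.0869), in a range of 0.0133 to 0.0875 over 14 alternatives.

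IREB2, or IRP2, which is controlled mainly through degradation of the protein, had positive log2 changes of 0.12 to 0.27 in all 4 tables, near the limit of the test. It held 34.2, 40.7 and 42.8 FPKM with OTX and 32.1, 34.2 and 32.3 FPKM with DMSO in U937 -FA (log2 0.24, adjusted p = 0.0393), where the lowest OTX library lay just under the highest DMSO library. It held 33.7, 38.4 and 38.1 FPKM with OTX and 33.9, 35.3 and 32.2 FPKM with DMSO in U937 +FA (log2 0.12, adjusted p = 0.297). In IMS-M2 -FA the values were 34.4, 39.2 and 32.7 FPKM with OTX and 26.2, 32.5 and 30.8 FPKM with DMSO, apart by a narrow margin (log2 0.24, adjusted p = 0.059). In IMS-M2 +FA they were 30.8, 36.0 and 29.8 FPKM with OTX and 25.9, 28.2 and 25.4 FPKM with DMSO (log2 0.27, adjusted p = 0.0367). None of these calls is stable to the loss of 1 library. The U937 -FA call was lost without DMSO column 0 (adjusted p = 0.103), DMSO column 2 (0.0768), OTX column 1 (0.12) or OTX column 2 (0.155), in a range of 0.00671 to 0.155. The IMS-M2 +FA call was lost without DMSO replicate 1 (0.0699), DMSO replicate 3 (0.0961), OTX replicate 1 (0.0513) or OTX replicate 2 (0.149), in a range of 0.00958 to 0.149. IMS-M2 -FA gained one without DMSO replicate 2 (0.0383) or OTX replicate 3 (0.0476), in a range of 0.0165 to 0.238.

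HMOX1, the inducible haem oxygenase, was a U937 transcript and rose there. It stood at 15.0, 15.3 and 13.0 FPKM with OTX and at 4.78, 4.59 and 2.62 FPKM with DMSO in U937 -FA. In U937 +FA it stood at 11.9, 8.82 and 7.95 FPKM with OTX and at 3.87, 3.90 and 4.14 FPKM with DMSO. OTX libraries lay above all DMSO libraries in both tables, and the DMSO groups were alike in mean (3.99 FPKM without folic acid and 3.97 FPKM with it). The log2 change was 1.65 ± 0.17 in U937 -FA (3.61-fold, adjusted p = 1.06e-05) and 1.07 ± 0.17 in U937 +FA (2.41-fold, adjusted p = 0.000299). Without DMSO column 2 the first became 1.44 (adjusted p = 5.92e-06, in a range of 5.92e-06 to 0.000323 over 13 alternatives). In IMS-M2 the 12 libraries held only 0.0763 to 0.269 FPKM, OTX and DMSO overlapped in both tables, and no test was made. HMOX2, a second haem oxygenase gene outside the set, had group means of 28.6 to 39.4 FPKM over both lines. These lay above HMOX1 in every group, and HMOX2 was named after its values were seen.

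BLVRA, the main biliverdin reductase of the adult, followed the same division between lines. It stood at 38.9, 36.2 and 35.6 FPKM with OTX and at 33.0, 32.4 and 23.1 FPKM with DMSO in U937 -FA (log2 0.33 ± 0.12, adjusted p = 0.0387). The groups were apart, but the rise rests on the low DMSO column 2: without it the log2 change was 0.17 (adjusted p = 0.128). The call was also lost without OTX column 0 (0.108), OTX column 1 (0.0739) or OTX column 2 (0.0632), in a range of 0.0232 to 0.128 over 13 alternatives. In U937 +FA it held 34.8, 33.4 and 28.6 FPKM with OTX around DMSO values of 30.7, 30.7 and 31.5 FPKM (log2 0.05, 95% interval -0.22 to 0.32). In IMS-M2 it lay at 0.679 to 1.38 FPKM with OTX and 0.679 to 1.71 FPKM with DMSO, with overlap in both tables and log2 changes of -0.19 without folic acid and -0.12 with it that did not pass the test.

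BLVRB, which reduces flavins and the form of biliverdin found in the fetus, was lower with OTX in IMS-M2. In IMS-M2 -FA it stood at 31.9, 25.8 and 30.5 FPKM with OTX and at 41.1, 33.0 and 44.1 FPKM with DMSO (log2 -0.41 ± 0.13, adjusted p = 0.0186). In IMS-M2 +FA it stood at 25.9, 23.98 and 30.3 FPKM with OTX and at 48.4, 57.0 and 62.7 FPKM with DMSO (log2 -1.04 ± 0.13, adjusted p = 2.14e-05). Groups did not overlap in either table, and the second fall left 0.477 of the DMSO mean. The first call was lost without DMSO replicate 1 (adjusted p = 0.0638), DMSO replicate 3 (0.0823) or OTX replicate 2 (0.0786), in a range of 0.00194 to 0.0823 over 14 alternatives. U937, where the gene was picked for its change, held more of it: 161, 142 and 154 FPKM with OTX and 276, 247 and 348 FPKM with DMSO without folic acid, a log2 difference of -0.91, and -0.77 without DMSO column 2. With folic acid U937 held 209, 176 and 201 FPKM with OTX and 203, 148 and 167 FPKM with DMSO, which overlap (log2 0.19). These U937 values are a description, and with folic acid they show no direction.

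The design also sets the response to OTX without folic acid against that with it. Taking the -FA change minus the +FA change, limma called 0 of 8 tested genes of the set in U937 and 0 of 9 in IMS-M2, where 2.01% and 6.94% of all genes were called. These backgrounds are unstable: with 1 library left out the 225 calls over all genes in U937 became 1 to 2704 and the 779 calls in IMS-M2 became 82 to 3429. At an unadjusted p below 0.05 there were 2 in each line, ACO1 and HMOX1 in U937 and FTL and BLVRB in IMS-M2, and no other tool was run. The median difference of the tested members was -0.06 in U937 and -0.01 in IMS-M2, beside -0.05 and 0.03 over all genes. In IMS-M2 the 2 largest were FTL at -0.79 ± 0.24 (adjusted p = 0.0604), a smaller rise without folic acid, and BLVRB at 0.63 ± 0.19 (adjusted p = 0.0572), a smaller fall without folic acid. Both depend on DMSO replicate 1 of IMS-M2 +FA: without it FTL came to -1.02 (adjusted p = 0.00108), BLVRB to 0.73 (0.0115), SLC40A1 to 0.46 (0.00914) and ACO1 to 0.34 (0.0123), so that 4 were called. Over 19 alternatives the ranges were 0.00108 to 0.149 for FTL, 0.0115 to 0.151 for BLVRB, 0.00914 to 0.381 for SLC40A1 and 0.0123 to 0.358 for ACO1. Without OTX replicate 2 of IMS-M2 -FA, BLVRB was called alone (0.72, adjusted p = 0.0374). In U937, FTL differed by 1.40, a larger rise without folic acid, and BLVRB by -1.10. These 2 values were part of what picked the genes and have no test, and without DMSO column 2 of U937 -FA they were 1.07 and -0.96. The FTL difference had opposite signs in the lines. The HMOX1 difference in U937 was 0.58 ± 0.25 (95% interval 0.05 to 1.12, adjusted p = 0.123), and 0.37 without DMSO column 2 of U937 -FA (adjusted p = 0.206, in a range of 0.0692 to 0.26 over 18 alternatives). The ACO1 difference was -0.38 ± 0.17 (adjusted p = 0.142). ACO1 was called without DMSO column 1 of U937 -FA (-0.49, adjusted p = 0.0447, in a range of 0.0447 to 0.3 over 18 alternatives). FTH1 had a difference with a 95% interval of -0.44 to 0.15 in U937 and of -0.31 to 0.30 in IMS-M2. The other differences ran from -0.30 (TFRC) to 0.28 (BLVRA) in U937 and from -0.17 (NCOA4) to 0.12 (TFRC) in IMS-M2, apart from SLC40A1 at 0.32 and ACO1 at 0.24 in IMS-M2, and none passed the test.

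Levels with DMSO are set side by side without a test, since the folic acid conditions come from separate tables. FTL held 3470.1 ± 1316 FPKM without folic acid and 4495 ± 840.1 FPKM with it in U937, and 1166 ± 106 and 730.0 ± 220.0 FPKM in IMS-M2. FTH1 held 342 ± 23.8 and 255 ± 22.4 FPKM in U937, and 539.9 ± 71.0 and 466 ± 28.2 FPKM in IMS-M2. SLC40A1 held 28.5 ± 1.70 FPKM without folic acid and 18.3 ± 3.13 FPKM with it in IMS-M2. BLVRB held 290.0 ± 52.1 and 172 ± 27.9 FPKM in U937, and 39.4 ± 5.76 and 56.1 ± 7.21 FPKM in IMS-M2 (SD, n = 3 in each group). The order of BLVRB without and with folic acid was thus opposite in the lines.

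Differences between the lines were tested by taking the IMS-M2 change from the U937 change, over all 24 libraries. HMOX1 entered this model only through U937, since it lay below the filter in IMS-M2, so its calls restate the U937 rise and carry no difference in response. With it counted, HMOX1 and BLVRA had a higher change in U937 in the -FA tables and ACO1 a lower one, 2 and 1 of 8 genes, against 43.0% of all genes called, 21.5% in each direction. With folic acid FTH1 and HMOX1 had a higher change in U937 and none a lower one (0 of 8 at an unadjusted p below 0.05 also, with no other tool run), against 50.6% of all genes called, 27.7% higher and 22.9% lower. The median difference was 0.01 without folic acid and 0.13 with it, beside -0.02 and 0.04 over all genes. The HMOX1 values, 1.70 without folic acid and 1.09 with it, are given with no p, and with a pseudocount of 0.1 FPKM in place of 1 FPKM they were 2.08 and 1.30. ACO1 differed by -0.72 ± 0.15 without folic acid (adjusted p = 0.000566) and by -0.09 with it (95% interval -0.40 to 0.21). FTH1 differed by 0.44 ± 0.13 with folic acid (adjusted p = 0.0101) and by 0.30 ± 0.13 without it (adjusted p = 0.0737). Rescaling each library to its table median brought the second under the threshold (adjusted p = 0.0363), as did leaving out DMSO replicate 2 of IMS-M2 -FA (0.0148) or OTX column 0 of U937 -FA (0.0403), in a range of 0.0148 to 0.204 over 19 alternatives.

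BLVRA, at about 1 FPKM in IMS-M2, differed by 0.52 ± 0.18 between the lines without folic acid (adjusted p = 0.0258). That call did not survive the loss of DMSO column 2 (adjusted p = 0.0836) or OTX column 0 (0.0559) of U937 -FA, or of DMSO replicate 1 (0.0791), OTX replicate 1 (0.0633) or OTX replicate 3 (0.0642) of IMS-M2 -FA, in a range of 0.0111 to 0.0836 over 19 alternatives. FTL differed by 1.20 without folic acid and by -0.99 with it, and BLVRB by -0.51 and 1.23. Both pairs have opposite signs in the 2 folic acid conditions, and neither was tested. TFRC (-0.16 without folic acid and 0.26 with it), IREB2 (-0.00028 and -0.15), NCOA4 (0.02 and -0.11) and SLC40A1 (-0.32 and 0.08) did not pass the test in either condition. Without DMSO column 2 the -FA values were 0.87 for FTL and -0.37 for BLVRB.

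**Figure D3:**
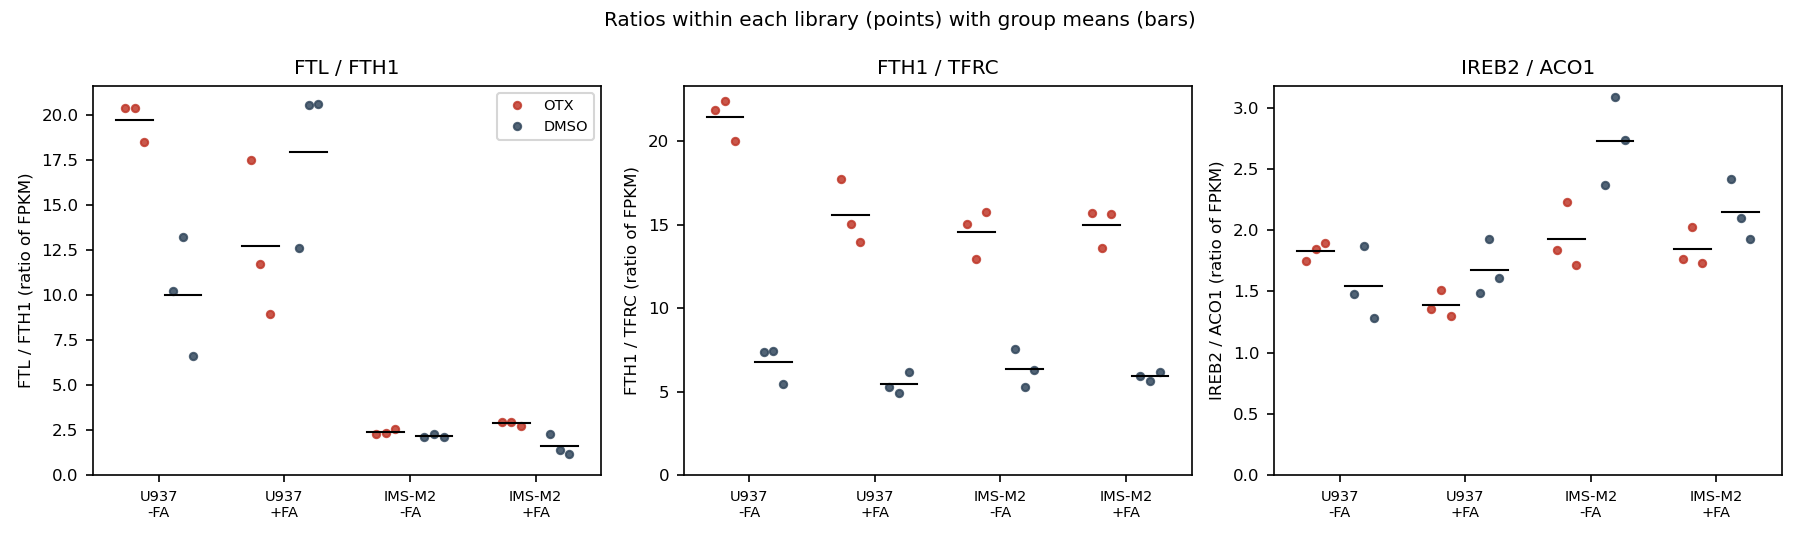
Ratio of FPKM within each library for FTL over FTH1, FTH1 over TFRC and IREB2 over ACO1 (linear axes from 0), with points for libraries and bars for group means, OTX left of DMSO. FTH1 over TFRC lies at 12.9 or above in every OTX library and at 7.57 or below in every DMSO library.

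Ratios within a library do not depend on its scaling, and FPKM is per length. Reads shared with other ferritin copies could still be part of the ratios that use FTL or FTH1, and FTH1 shares its locus with BEST1. FTH1 over TFRC, storage over import, averaged 21.4 with OTX and 6.76 with DMSO in U937 -FA, 15.6 and 5.46 in U937 +FA, 14.6 and 6.37 in IMS-M2 -FA, and 15.0 and 5.92 in IMS-M2 +FA. All 12 OTX libraries lay above all 12 DMSO libraries, whichever the line and the folic acid condition. FTH1 alone separates them too, at 757 FPKM or above with OTX and 605 FPKM or below with DMSO. Since TFRC did not pass the test, the ratio mostly restates the rise of FTH1. FTL over FTH1 set the lines apart instead. It averaged 19.7 with OTX and 10.02 with DMSO in U937 -FA, and 12.7 with OTX and 17.9 with DMSO in U937 +FA, where the groups overlap. In IMS-M2 it averaged 2.38 with OTX and 2.17 with DMSO without folic acid, and 2.89 with OTX and 1.59 with DMSO with it. Every U937 library had a ratio of 6.59 or above, and every IMS-M2 library one of 2.97 or below. IREB2 over ACO1 averaged 1.83 with OTX and 1.55 with DMSO in U937 -FA and 1.39 and 1.68 in U937 +FA, with 1.93 and 2.73 in IMS-M2 -FA and 1.84 and 2.15 in IMS-M2 +FA. It was lower with OTX beyond all 3 DMSO libraries only in IMS-M2 -FA among these 4 tables.

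Of 38 further genes of iron transport and handling, 17 were tested in U937 and 15 in IMS-M2, and 58.8, 58.8, 40.0 and 60.0% of those tested were called in U937 -FA, U937 +FA, IMS-M2 -FA and IMS-M2 +FA, where 59.8, 56.1, 57.5 and 63.2% of all genes were. There were 3 higher and 7 lower in U937 -FA (median log2 change -0.28), 3 and 7 in U937 +FA (-0.24), 2 and 4 in IMS-M2 -FA (-0.01) and 3 and 6 in IMS-M2 +FA (-0.19). The lower calls were 41.2, 41.2, 26.7 and 40.0% of the genes tested in that order, where 31.7, 27.0, 30.0 and 33.4% of all genes were lower. TFR2, a second transferrin receptor that senses iron, fell in all 4, with means of 2.18 FPKM with OTX and 8.70 FPKM with DMSO in U937 -FA (log2 -1.61, adjusted p = 2.21e-07) and 1.31 and 6.26 FPKM in IMS-M2 +FA (log2 -1.65, adjusted p = 9.41e-09). STEAP3, the reductase that frees iron from the transferrin endosome, fell in all 4 too, by 1.30, 0.61, 1.68 and 1.90 on the log2 scale in U937 -FA, U937 +FA, IMS-M2 -FA and IMS-M2 +FA. FBXL5, the ligase subunit that senses iron and marks IREB2 protein for degradation, rose in all 4, by 0.59, 0.61, 0.45 and 0.44 in the same order. MCOLN1, a lysosomal channel that releases iron, rose in U937 by 0.70 without folic acid and 1.04 with it. SLC39A14, an importer of iron not bound to transferrin, fell by 0.84 in U937 +FA and 0.59 in IMS-M2 +FA. GLRX3, a cytosolic iron-sulphur glutaredoxin, rose by 0.70 in IMS-M2 +FA and fell by 0.53 in U937 +FA, and PCBP2, an iron chaperone that delivers to ferritin, rose by 0.41 in IMS-M2 -FA (adjusted p = 0.0499). With no filter on low values, 11 genes of this list were called in place of 6 in IMS-M2 -FA and 16 in place of 9 in IMS-M2 +FA.

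Haem synthesis, with 12 of 13 genes tested, had calls in both directions, at 41.7 to 58.3% of its genes, where 56.1 to 63.2% of all genes were called. It had 1 gene higher and 4 lower in U937 -FA (median log2 -0.02), 4 and 3 in U937 +FA (-0.11), 4 and 3 in IMS-M2 -FA (-0.01) and 3 and 2 in IMS-M2 +FA (0.04). UROD, uroporphyrinogen decarboxylase, fell in all 4: its means were 34.8 FPKM with OTX and 101 FPKM with DMSO in U937 -FA, 44.4 and 92.1 in U937 +FA, 41.8 and 132 in IMS-M2 -FA, and 38.1 and 163 in IMS-M2 +FA, the last a log2 change of -2.07 ± 0.12 (adjusted p = 1.36e-08). ALAS1, the first and rate-limiting enzyme outside red cells, rose by 0.47 in U937 +FA and 0.32 in IMS-M2 -FA, and ALAD, the next enzyme, by 0.53 and 0.51 there. ALAD also rose by 0.24 in IMS-M2 +FA. CPOX, a later step in mitochondria, rose by 0.56 in U937 -FA and 0.29 in U937 +FA and fell by 0.35 in IMS-M2 -FA. CLPX, a mitochondrial protease subunit that acts on ALAS1, fell by 0.58 in U937 -FA, 0.66 in U937 +FA and 0.22 in IMS-M2 +FA. UROS, the step before UROD, and ABCB10, a mitochondrial transporter, rose by 0.77 and 0.37 in IMS-M2 +FA. There 3 genes in place of 5 were called without DMSO replicate 2, OTX replicate 1 or OTX replicate 3.

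Iron-sulphur cluster assembly, with all 27 genes tested, had its highest share of lower calls in U937 +FA, at 59.3% of its genes where 27.0% of all genes were lower. Elsewhere the lower share was 37.0% in U937 -FA (31.7% of all genes), 44.4% in IMS-M2 -FA (30.0%) and 33.3% in IMS-M2 +FA (33.4%). The counts were 3 higher and 10 lower in U937 -FA (median log2 -0.20), 3 and 16 in U937 +FA (-0.48), 3 and 12 in IMS-M2 -FA (-0.20) and 10 and 9 in IMS-M2 +FA (0.03). HSPA9, the mitochondrial chaperone that hands on new clusters, fell by 0.93 in U937 -FA and 0.69 in IMS-M2 +FA. LYRM4, a partner of the cysteine desulphurase, fell by 0.94 in U937 -FA and 1.22 in U937 +FA. FDX1L, a ferredoxin, fell by 0.81 in IMS-M2 -FA and 0.97 in IMS-M2 +FA, and FAM96A, of cytosolic assembly, by 1.16 in U937 +FA and 0.75 in IMS-M2 -FA. The cluster carriers ISCA2 and NFU1 rose by 0.83 and 0.61 in U937 -FA, FAM96B and NUBP1 by 0.49 and 0.48 in U937 +FA, and FAM96B by 0.32 in IMS-M2 -FA. ISCA1 fell by 0.32 in U937 +FA and rose by 0.27 in IMS-M2 -FA and by 0.76 in IMS-M2 +FA, where GLRX5, a mitochondrial glutaredoxin, rose by 0.57.

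NRF2 is the stress factor that acts on ferritin, HMOX1 and BLVRB genes in other cells, and BACH1 is the haem-sensing repressor of the same sites. Among 24 listed NRF2 targets outside the set, 18 were tested in U937 and 17 in IMS-M2, with 6 higher and 7 lower in U937 -FA (median log2 0.03), 6 and 7 in U937 +FA (-0.20), 6 and 4 in IMS-M2 -FA (0.0026) and 4 and 8 in IMS-M2 +FA (-0.20). Called in either direction were 72.2, 72.2, 58.8 and 70.6% of them in that order, where 59.8, 56.1, 57.5 and 63.2% of all genes were called. NQO1, a quinone reductase and classical target, rose by 1.32 in U937 -FA, with means of 34.0 FPKM with OTX and 12.9 FPKM with DMSO, and by 0.75 in U937 +FA. It fell in IMS-M2, where its means were 1.70 FPKM with OTX and 3.54 FPKM with DMSO without folic acid (log2 -0.74, adjusted p = 5.23e-05), and 0.971 and 2.39 FPKM with it (log2 -0.78, adjusted p = 2.77e-05); these 2 IMS-M2 values were looked up after the U937 value was seen. EPHX1, an epoxide hydrolase, rose in IMS-M2 by 1.97 without folic acid and 1.82 with it, and GCLC, which starts glutathione synthesis, by 0.93 and 0.72. PGD, a dehydrogenase that yields NADPH, rose by 0.54 in U937 -FA and 1.09 in U937 +FA and fell by 0.29 in IMS-M2 +FA. TKT, a transketolase, fell in U937 by 0.70 without folic acid and 0.54 with it, the exporter ABCC1 by 0.67 in U937 -FA and 0.50 in IMS-M2 +FA, PIR by 1.09 in U937 +FA and 1.19 in IMS-M2 -FA, and SRXN1, which repairs peroxiredoxins, by 0.52 and 0.74 in IMS-M2 without and with folic acid. The classical targets GCLM and TXNRD1 did not pass the test in any table, and were named after their values were seen.

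Of the regulators, BACH1 rose in all 4 tables, by 0.33 in U937 -FA, 0.46 in U937 +FA, 0.27 in IMS-M2 -FA and 0.35 in IMS-M2 +FA, with means of 10.5 to 14.1 FPKM with OTX and 8.04 to 11.0 FPKM with DMSO. NFE2L2, which encodes NRF2, rose in U937 by 0.29 without folic acid and 0.33 with it. KEAP1, which holds NRF2 protein down, fell by 0.81 in U937 -FA, 0.50 in IMS-M2 -FA and 0.82 in IMS-M2 +FA, while its log2 value in U937 +FA was -0.02 (adjusted p = 0.898). Among the small MAF partners, MAFG rose by 0.23 in IMS-M2 -FA and MAFK fell by 0.67 in IMS-M2 +FA. Of 7 regulators tested in U937, 3 were higher and 1 lower without folic acid (median log2 0.10) and 4 and 0 with it (0.33). Of 8 in IMS-M2, 2 were higher and 1 lower without folic acid (0.14) and 1 and 3 with it (-0.06). The shares called in either direction, 57.1% in each U937 table and 37.5 and 50.0% in IMS-M2 without and with folic acid, were near or below the 56.1 to 63.2% of all genes. Higher calls were 42.9% in U937 -FA and 57.1% in U937 +FA, where 28.0 and 29.1% of all genes were higher. In IMS-M2 they were 25% without folic acid and 12.5% with it, against 27.5 and 29.8%. Lower calls were 14.3% in U937 -FA and 0% in U937 +FA, against 31.7 and 27.0%. In IMS-M2 they were 12.5 and 37.5%, against 30.0 and 33.4%. The U937 -FA count in either direction fell to 2 without DMSO column 0, OTX column 1 or OTX column 2, and the IMS-M2 -FA count to 1 without DMSO replicate 1, DMSO replicate 3 or OTX replicate 1.

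**Figure D4:**
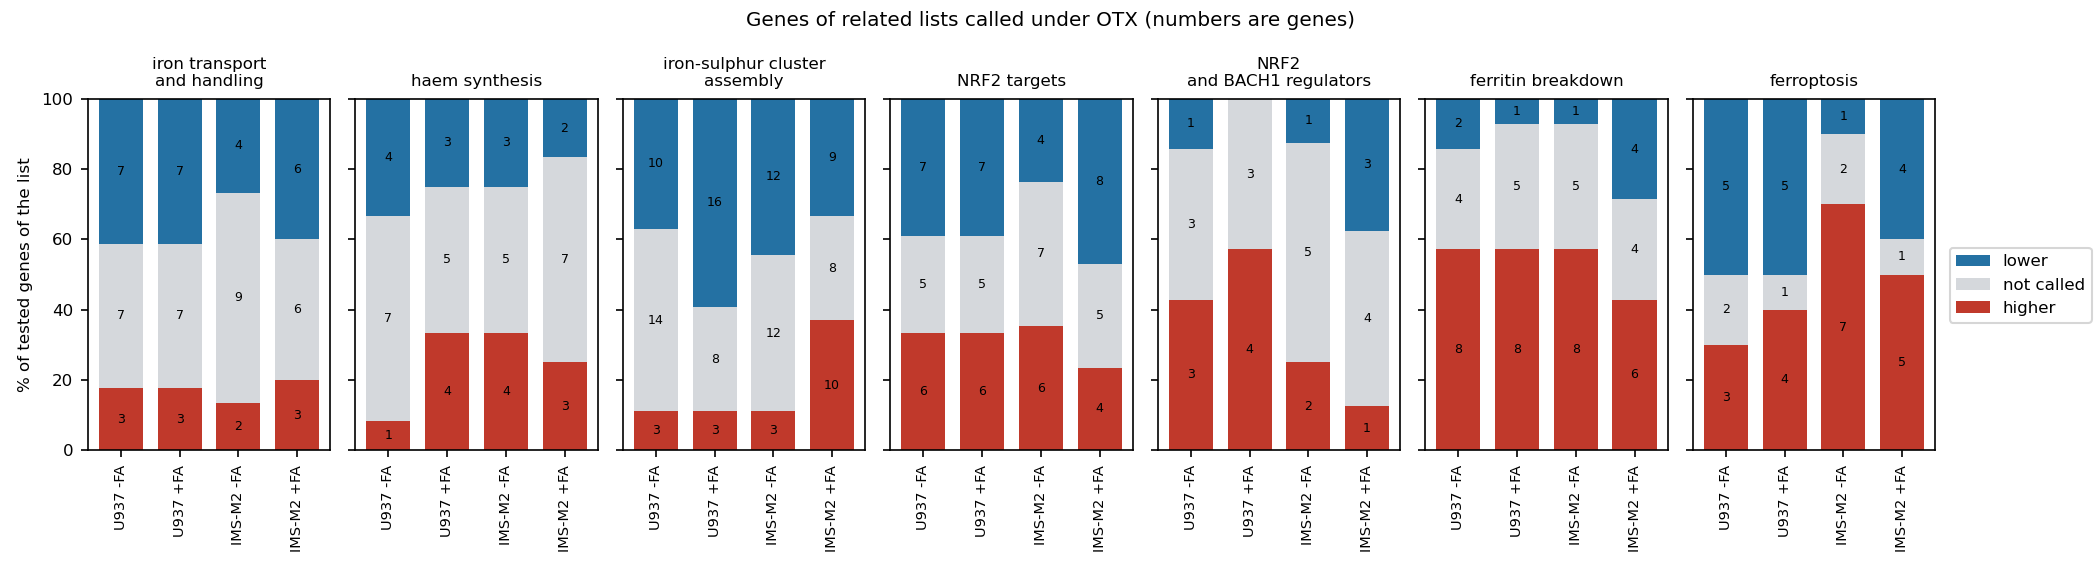
Share of the tested genes of 7 related lists (percent of genes, numbers in the bars are genes) that were higher, not called or lower with OTX in each table by limma at an adjusted p below 0.05. Ferritin breakdown has 8 genes higher in 3 of the tables, and iron-sulphur cluster assembly has 16 lower in U937 +FA.

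Genes that take ferritin to the lysosome had a larger share of higher calls than all genes, by most in 3 of the 4 tables, and NCOA4 itself was not called. The share was 57.1% in U937 -FA, U937 +FA and IMS-M2 -FA, where 28.0, 29.1 and 27.5% of all genes were higher, and 42.9% in IMS-M2 +FA (29.8%). Of 14 tested (16 listed), 8 were higher and 2 lower in U937 -FA (median log2 0.28), 8 and 1 in U937 +FA (0.35), 8 and 1 in IMS-M2 -FA (0.36) and 6 and 4 in IMS-M2 +FA (0.14). MAP1LC3B, a coat protein of autophagosomes, rose in all 4: its means were 45.5 FPKM with OTX and 17.7 FPKM with DMSO in U937 -FA, 38.6 and 19.3 in U937 +FA, 57.9 and 25.2 in IMS-M2 -FA and 51.4 and 20.6 in IMS-M2 +FA. TAX1BP1, an adaptor that works with NCOA4, rose in IMS-M2 by 0.76 without folic acid and 0.90 with it, and SQSTM1, another adaptor, by 1.02 in U937 -FA. GABARAPL2, a relative of MAP1LC3B, rose by 0.68 in U937 +FA. ATG9A, which supplies membrane, fell by 0.62 in U937 -FA and 0.37 in IMS-M2 +FA, ATG7 by 0.50 and 0.20 in U937 without and with folic acid, ATG16L1 by 0.29 in IMS-M2 -FA and GABARAPL1 by 0.39 in IMS-M2 +FA, while GABARAPL1 rose in U937 by 0.91 without folic acid and 1.02 with it. Many of these genes serve autophagy at large, not ferritin alone.

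Among genes of ferroptosis, the iron-dependent death by lipid peroxidation, 10 of 13 were tested. The counts were 3 higher and 5 lower in U937 -FA (median log2 -0.24), 4 and 5 in U937 +FA (-0.25), 7 and 1 in IMS-M2 -FA (0.47) and 5 and 4 in IMS-M2 +FA (0.07). Called in either direction were 8 or 9 of these 10 genes, where 56.1 to 63.2% of all genes were called. Higher calls were 30 and 40% in U937 -FA and +FA and 70 and 50% in IMS-M2 -FA and +FA. Over all genes, 28.0, 29.1, 27.5 and 29.8% were higher in that order. Lower calls were 50, 50, 10 and 40% of the list, against 31.7, 27.0, 30.0 and 33.4% of all genes. The members that moved include genes of both protection and promotion. GPX4, which removes lipid peroxides, rose by 0.73 in U937 +FA and 0.67 in IMS-M2 +FA, and GCH1, of the protective tetrahydrobiopterin route, by 1.04 and 1.34 in IMS-M2 without and with folic acid. SLC3A2, a chain of the cystine importer, fell in U937 by 0.88 without folic acid and 1.42 with it. DHODH, which protects mitochondria, fell in all 4, by 1.47 in U937 -FA, 1.41 in U937 +FA, 0.80 in IMS-M2 -FA and 0.63 in IMS-M2 +FA. SAT1, a polyamine enzyme, rose in U937 by 1.08 and 1.13, LPCAT3, which loads membranes with polyunsaturated lipids, by 0.39 in U937 -FA, and CHAC1, which degrades glutathione, by 1.54 in IMS-M2 -FA. CHAC1 fell by 0.59 in U937 -FA, 0.93 in U937 +FA and 0.51 in IMS-M2 +FA. NFS1, the cysteine desulphurase, which the iron-sulphur list also holds, fell by 0.52 in IMS-M2 +FA. With a filter of 5 FPKM, 5 ferroptosis genes in place of 8 were called in U937 -FA.

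Genes whose 4 OTX changes came closest to those of FTL, BLVRB and TFRC were sought among 7803 genes at a mean of 5 FPKM or more in a group of each line. The measure was the mean absolute difference of the 4 log2 changes, and it is a description with no test. Closest to FTL were C18orf32 (0.128), H1FX, a linker histone (0.297), TNF, an inflammatory cytokine (0.328), FAM195B (0.348) and PIM1, a kinase (0.382). C18orf32 had log2 changes of 2.51 in U937 -FA, 1.01 in U937 +FA, 1.09 in IMS-M2 -FA and 1.90 in IMS-M2 +FA. Closest to BLVRB were WDR6 (0.0666), CRYBB2P1 (0.0735), NICN1 (0.0886), SNAPC5 (0.106) and MCM5, a subunit of the replicative helicase (0.109). Close to TFRC, whose own changes are small, were SERF2 (0.019), ANAPC2 (0.0276), DNAJA2 (0.0287) and TBC1D9B (0.0288).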

How the data were processed

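The deposited tables hold FPKM made by the authors, per the layout and values of the tables. The submitters' processing notes name Cuffdiff 2.2.1, TopHat2 2.1.1, bcl2fastq 2.17.1.14 and the hg19 build, with no role or order. RNA was polyadenylated and libraries were stranded TruSeq mRNA, per the labels' protocols. Such values are shares within a library, blind to a shift in the RNA content of the cells. Depth is unknown, and no counting interval was computed.

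Values were tested as log2(FPKM + 1) with limma 3.58.1 (R 4.3.3), a scale that understates changes of low genes. Each line had 1 model with a mean per group (12 libraries), and line differences had 1 model of all 24, both moderated by eBayes with a trend on intensity. A gene entered if some group averaged 1 FPKM or more, with Benjamini-Hochberg adjustment over all of them and a threshold of 0.05. The 8 contrasts lie within a table or are differences of such changes, because the 4 tables may have been normalized separately. Column numbers of U937 -FA start at 0 but label numbers at 1, so these libraries were assigned to groups only and are called columns. No column of per-sample values was left unused.

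The members and all lists were chosen with earlier results of these data known. All 10 members are reported in each contrast. From each of 7 lists, up to 2 genes per direction and OTX contrast with the largest log2 change were named, if called and averaging 5 FPKM or more in some group. MYC, HEXIM1 and the ferritin copies were named whatever their value, as were the 5 genes closest in their OTX changes to each of FTL, BLVRB and TFRC, and other names are marked where they occur. Of the genes these rules name, 2 are not reported here. For some of the others, values of further tables are given beside those that named them. A table not mentioned for a listed gene may also hold a call. Hairpins were searched in reference transcripts of GENCODE release 29 on GRCh38, whose coordinates are not those of hg19. The calling of known changes by limma was tested on simulated data. Alternatives were the pseudocount, the filter, rescaling, the fit on single tables, the fit with no trend, the replicate number as a block, and leaving out each library.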

Additional observations from a re-analysis of the deposited data

Results flagged for a closer look

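By a test of the difference itself, the OTX change of FTH1 with folic acid was larger in U937 (0.44 on the log2 scale). By the same test, ACO1 without folic acid changed less in U937 (-0.72). BLVRA without folic acid also differed by that test (0.52), with log2 changes of 0.33 in U937 and -0.19 in IMS-M2. Its IMS-M2 change did not pass the test, at means of 1.08 FPKM with OTX and 1.38 FPKM with DMSO. The BLVRA value depends on several single libraries, as given above. HMOX1 also passed the threshold without folic acid (1.70) and with it (1.09), but it lay below the filter in IMS-M2, so these values restate its U937 rise and show no difference in response.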

How the results depend on the processing

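The calls of FTL, FTH1, ACO1 and BLVRB in IMS-M2 +FA, of FTL, FTH1, ACO1 and SLC40A1 in IMS-M2 -FA, and of FTH1 and HMOX1 in U937 held under all alternatives run. The FA difference over all genes was unstable. In U937 its 225 calls became 31 with a pseudocount of 0.1 FPKM, 461 with 5 FPKM, 128 with no filter and 1 to 2704 when 1 library was left out. In IMS-M2 its 779 calls became 445 with no filter, 1920 with the replicate block and 82 to 3429 when 1 library was left out. Called members there numbered 0 to 4 in IMS-M2 and 0 to 1 in U937 when 1 library was left out, and 2 to 4 in U937 -FA, where a fit on the table alone left 2. Replicate numbers did not pair the samples by the rule that every pair's correlation of deviations exceeds 0.1: it was 0.0517, 0.278 and 0.0734 in IMS-M2 +FA, 0.0755, 0.213 and 0.191 in IMS-M2 -FA and -0.336, 0.13 and -0.239 in U937 +FA, although in IMS-M2 every OTX library but replicate 1 with folic acid correlated best with its own number. With the replicate block the FA difference in IMS-M2 called 2 members, FTL (adjusted p = 0.0335) and BLVRB (0.0197); IREB2 gained its call in IMS-M2 -FA (0.0165) and ACO1 lost its call in U937 +FA (0.0548), and called NRF2 and BACH1 regulators came to 1 in place of 4 in U937 +FA and to 5 in place of 3 in IMS-M2 -FA. No paired analysis was possible for U937 -FA because its columns carry no label number. IREB2 in IMS-M2 +FA lost its call with no filter (0.0503) and on the table alone (0.0517). In U937 -FA, BLVRA lost it with no filter (0.0563) and on the table alone (0.0863), as IREB2 did on the table alone (0.0851). Between lines without folic acid, SLC40A1 was called with a pseudocount of 5 FPKM (-0.39, 0.00596) and on 2 tables (0.0294), and BLVRA lost its call on 2 tables (0.0571). Only uncalled values reversed: with a pseudocount of 5 FPKM, SLC40A1 between lines with folic acid (-0.051) and IREB2 without it (0.0026); rescaled, NCOA4 in U937 +FA (-0.020), ACO1 in U937 -FA (0.0084), NCOA4 in the U937 FA difference (0.011) and IREB2 between lines without folic acid (0.015). The cause of these shifts was not tested. With 1 library left out, uncalled values that changed sign ran from -0.010 to 0.19 (TFRC), -0.059 to 0.042 (NCOA4) and -0.0050 to 0.13 (BLVRA) in U937 +FA, and from -0.12 to 0.092 (ACO1) and -0.070 to 0.019 (NCOA4) in U937 -FA. In the FA difference they ran from -0.11 to 0.080 (FTH1), -0.11 to 0.056 (IREB2) and -0.17 to 0.036 (BLVRA) in IMS-M2, and from -0.20 to 0.012 (SLC40A1) and -0.075 to 0.027 (NCOA4) in U937. Between lines they ran from -0.17 to 0.0050 (ACO1) and -0.013 to 0.22 (SLC40A1) with folic acid, and from -0.065 to 0.093 (IREB2) and -0.020 to 0.073 (NCOA4) without it.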

Other observations

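HBB, a globin transcript, reached a level that put the summed erythroid markers of 1 IMS-M2 -FA OTX library at 10.4 FPKM, while the lowest library of that group had a sum of 0.00541 FPKM. The source of this signal was not tested.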
